A study of Mus musculus with 8 samples.

Results

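The genes described here are 42 listed mouse genes of the NRF2, glutathione and antioxidant system, followed across 8 bead arrays of bone marrow derived macrophages. They were chosen by function, with earlier results of these data known. A gene was kept when a probe carrying its symbol had a detection p under 0.05 on at least 2 of the 8 arrays. Of the 42, 38 had a probe of their symbol on the array, detected or not. The detection rule was passed by 35, which were tested among 12793 genes and unnamed probes in all. Gsr, Prdx5, Prdx6 and G6pdx are not analysed here, because the probe table used holds no probe under those symbols. Gclc, the catalytic subunit of glutamate-cysteine ligase, was detected on 1 array only, and Gsta4 and Pgd on none, so these 3 have no test. Among the 35 tested genes, 33 were detected on all 8 arrays by the probe used, Slc7a11 on 6 and Me1 on 4.

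All arrays were of C57BL/6 macrophages grown for 7 days with M-CSF, the growth factor that drives bone marrow precursors to macrophages. The 4 groups, with 2 arrays each, were untreated cells, cells given all-trans retinoic acid (ATRA, the vitamin A derivative that activates retinoic acid receptors) at 1 µM, cells given conditioned medium of cultured omentum (OMsup; the omentum is a fatty fold of the peritoneum), and cells given both (ATRA+OMsup). Treatments lasted 24 h in a serum-free macrophage medium, and the medium of the untreated cells is not stated. A difference from untreated cells that all treated groups share therefore cannot be told apart from a difference of medium. The labels do not say whether replicates were separate cultures or animals, so each p-value reflects the variation among these arrays alone, and that variation may be technical. A cultured macrophage population is the only cell model here, and OMsup is a mixture whose contents the labels do not give.

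NRF2, encoded by Nfe2l2, is a transcription factor that KEAP1 holds in the cytoplasm and marks for degradation. Oxidants and electrophiles modify KEAP1, NRF2 then enters the nucleus, pairs with small MAF proteins and binds antioxidant response elements near genes for glutathione synthesis, conjugation, quinone reduction and NADPH supply. Glutathione and thioredoxin are the main thiol reductants of the cell, and macrophages use both to withstand the oxidants they produce. Because NRF2 is set mainly by protein stability, its mRNA level does not measure its activity.

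The antioxidant response element core was looked for as TGACNNNGC, on either strand, in RefSeq promoters of build GRCm38.p6. Each promoter ran from 250 bases before to 50 bases after an annotated start, and some genes had several. All 35 tested genes had a promoter there, and 9 of them (25.71%) held the core in at least 1 promoter. Counted by gene in the same way, 16.65% of the 8220 tested genes with a promoter and 13.99% of all 27025 genes held the core. Counted by single promoter, the share was 12.39% of all 32851. Among the 10 listed genes that rose with OMsup, 3 held the core, beside 18.56% of the 404 genes with a promoter that rose in all. It was held by 6 of the 21 listed genes that did not pass the test with OMsup and 0 of the 4 that fell. The 3 promoters are printed because they belong to genes with large rises described below, with the core in capitals. Mgst1 has 2 promoters, and only the 1 printed held the core. A match only describes these letters, and a window without one says nothing of NRF2 binding.
Gsta3 promoter, chr1:21240335-21240634, plus strand: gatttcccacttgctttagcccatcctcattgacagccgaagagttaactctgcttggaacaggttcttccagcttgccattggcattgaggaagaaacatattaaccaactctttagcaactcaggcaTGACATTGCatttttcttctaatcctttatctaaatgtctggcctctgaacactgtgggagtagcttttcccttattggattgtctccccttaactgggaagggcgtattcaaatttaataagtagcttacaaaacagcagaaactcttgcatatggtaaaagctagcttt
Gclm promoter, chr3:122245307-122245606, plus strand: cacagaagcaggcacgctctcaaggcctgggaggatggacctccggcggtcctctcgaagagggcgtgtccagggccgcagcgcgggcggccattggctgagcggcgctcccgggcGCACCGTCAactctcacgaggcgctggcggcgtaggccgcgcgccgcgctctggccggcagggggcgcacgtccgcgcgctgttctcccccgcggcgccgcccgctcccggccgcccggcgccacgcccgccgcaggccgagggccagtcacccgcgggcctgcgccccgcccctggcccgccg
Mgst1 promoter, chr6:138140277-138140576, plus strand: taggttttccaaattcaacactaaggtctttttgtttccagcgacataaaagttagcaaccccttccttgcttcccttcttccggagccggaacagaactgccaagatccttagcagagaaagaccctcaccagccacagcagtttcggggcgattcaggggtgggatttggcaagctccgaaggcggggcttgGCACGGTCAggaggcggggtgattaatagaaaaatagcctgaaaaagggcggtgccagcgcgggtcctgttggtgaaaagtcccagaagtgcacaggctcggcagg
In Gsta3 the core TGACATTGC lies on the gene's strand from position -121 to -113 before the start. In Gclm it lies on the other strand from -134 to -126, read here as GCACCGTCA, and in Mgst1 on the other strand from -56 to -48, read as GCACGGTCA.

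More of these genes were called with OMsup, alone or with ATRA, than with ATRA alone. With OMsup alone, 10 genes rose and 4 fell against untreated cells, 14 of 35 at an adjusted p under 0.05 by limma's moderated test, where 9.36% of all tested genes were called (4.68% higher and 4.67% lower). The risers were Gsta3, Mgst2, Gclm, Slc7a11, Cbr3, Mgst1, Nqo1, Taldo1, Sod2 and Cat, and the genes that fell were Ephx1, Gpx3, Mgst3 and Prdx4. The median log2 difference over the 35 genes was 0.19, beside 0.00 over all tested genes. With ATRA alone no gene of the 35 rose and 4 fell, Ephx1, Nqo1, Slc7a11 and Mgst3, where 4.06% of all genes were called (2.35% higher and 1.72% lower). Their median was -0.10, beside 0.01 over all genes. With ATRA+OMsup against untreated cells, 10 rose and 4 fell, where 15.1% of all genes were called (7.88% higher and 7.26% lower), with a median of 0.17 beside -0.01. These 3 comparisons share the untreated arrays.

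**Figure D1:**
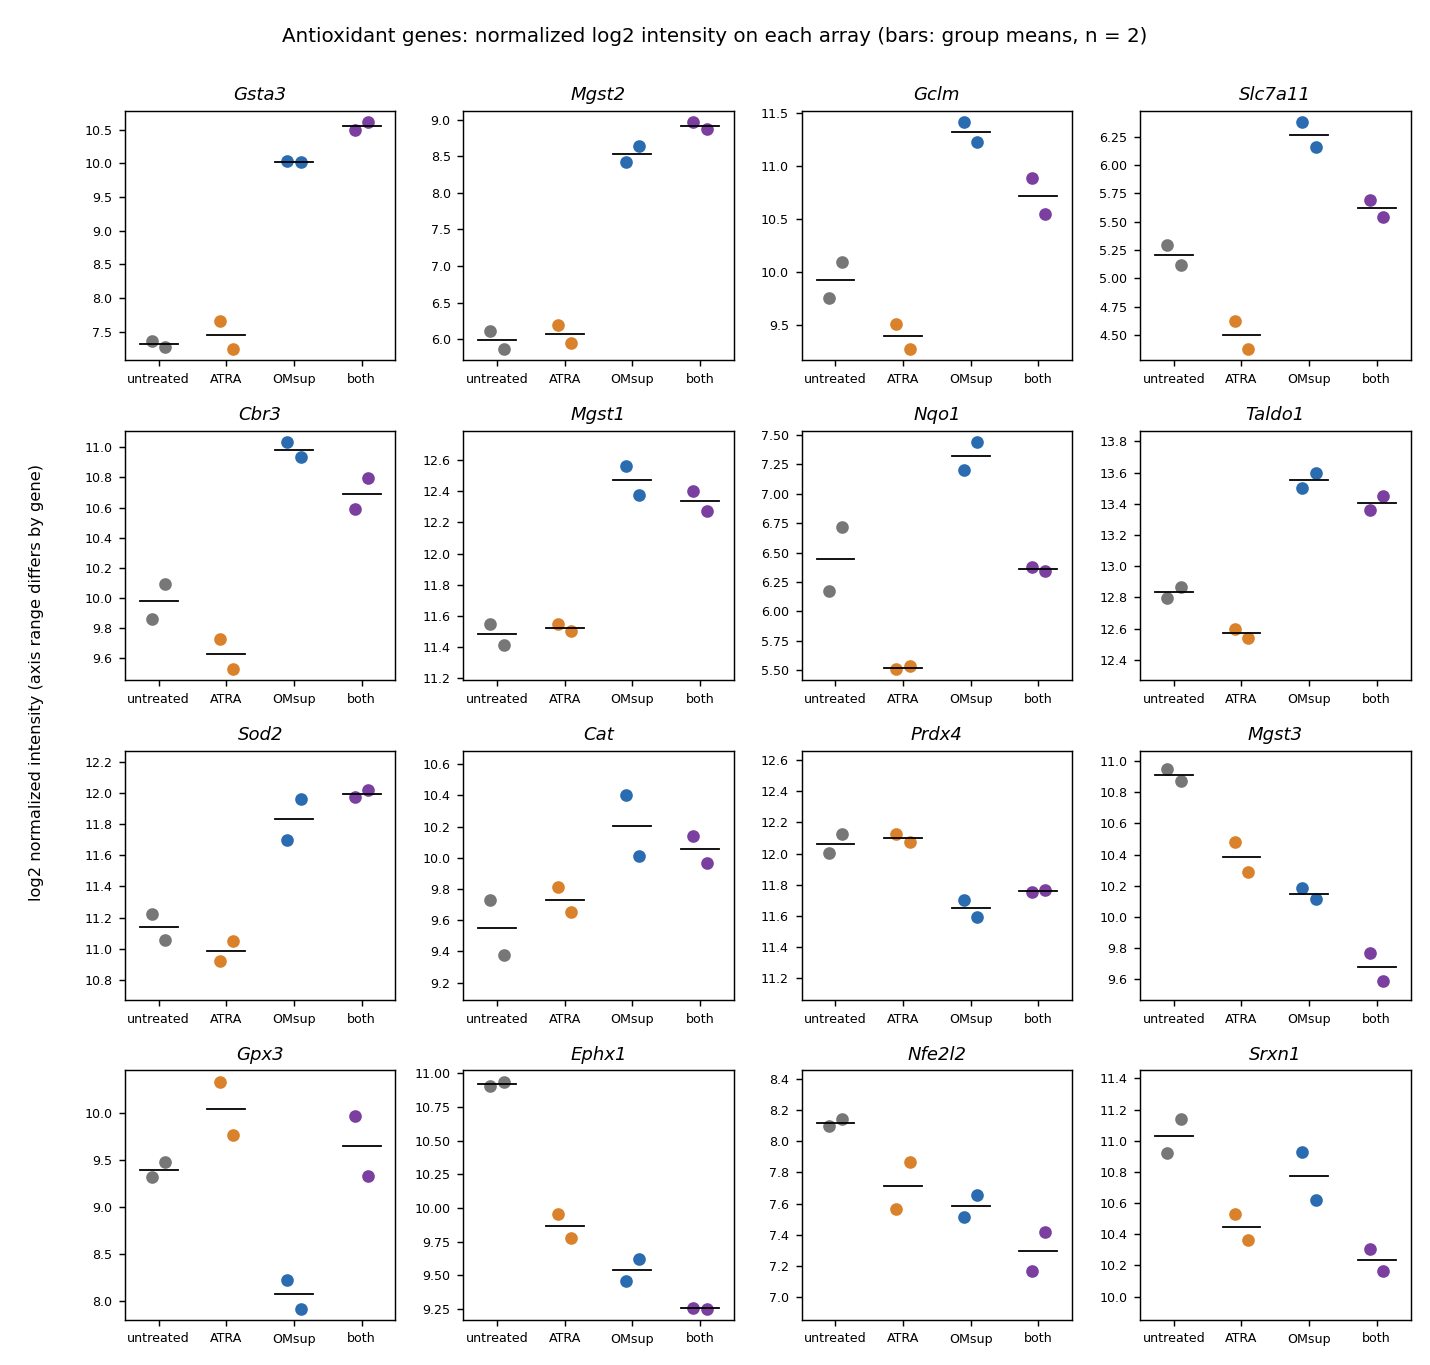
Normalized log2 intensity of tested genes on each of the 8 arrays, with the mean of each group; "both" stands for ATRA+OMsup. Gsta3 lies between 7.24 and 7.66 on the untreated and ATRA arrays and between 10.01 and 10.61 on the 4 arrays with OMsup, while Ephx1 lies highest on the untreated arrays.

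Among the regulators, the arrays showed a lower Nfe2l2 mRNA with the combined treatment and no called change of Keap1 or Sqstm1. On the normalized log2 intensity scale, Nfe2l2 read 8.10 and 8.14 in untreated cells, 7.57 and 7.87 with ATRA, 7.51 and 7.66 with OMsup and 7.17 and 7.42 with ATRA+OMsup. Both untreated arrays lay above all 6 treated arrays, and the ATRA and OMsup arrays overlapped. Against untreated cells, the difference was -0.83 with ATRA+OMsup (SE 0.17, adjusted p = 0.00664), -0.54 with OMsup (adjusted p = 0.0811) and -0.40 with ATRA (adjusted p = 0.306). ATRA+OMsup and OMsup differed by -0.29 (adjusted p = 0.539), so the treatments were not shown to differ. Under median scaling of the arrays, the OMsup difference was -0.66 and was called (adjusted p = 0.0499). Without untreated replicate 2 the combined difference was -0.80 with an adjusted p of 0.0534. Keap1, the adaptor that targets NRF2 to a ubiquitin ligase, read 9.12 and 9.37 in untreated cells, 9.15 and 9.26 with ATRA, 9.31 and 9.38 with OMsup and 9.32 and 9.45 with ATRA+OMsup, and the untreated arrays overlapped with those of each treated group. Its difference with OMsup had a 95% interval of -0.21 to 0.41. Sqstm1, the autophagy receptor p62 that can bind KEAP1, differed from untreated by -0.19 with OMsup, with an interval of -0.47 to 0.09.

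Of the 3 tested genes that bring in cystine and build glutathione, Gclm and Slc7a11 rose with OMsup and Gss did not pass. Gclm encodes the modifier subunit of glutamate-cysteine ligase, the enzyme of the limiting step of glutathione synthesis. It read 9.75 and 10.09 in untreated cells, 9.51 and 9.27 with ATRA, 11.41 and 11.22 with OMsup and 10.89 and 10.55 with ATRA+OMsup. The OMsup arrays were the highest, the ATRA+OMsup arrays came next, and neither overlapped with the other groups. Gclm rose 2.63-fold with OMsup (log2 1.40, SE 0.17, adjusted p = 0.000358) and by 0.80 with ATRA+OMsup (adjusted p = 0.00774). Without untreated replicate 1 the latter was 0.63 with an adjusted p of 0.0785. With ATRA alone Gclm differed by -0.53 (adjusted p = 0.138), and against ATRA it was 1.92 higher with OMsup (adjusted p = 2.54e-05) and 1.32 higher with ATRA+OMsup (adjusted p = 0.000471).

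Slc7a11, the transporter that exchanges glutamate for extracellular cystine, read 5.30 and 5.12 in untreated cells, 4.63 and 4.38 with ATRA, 6.38 and 6.16 with OMsup and 5.69 and 5.55 with ATRA+OMsup. These are values of the brightest probe, which was detected on both arrays of each group except ATRA, where neither array was above background. Another probe was detected on all 8 arrays, at 4.72 and 4.65 with ATRA, so the gene itself was detected there. For the brightest probe the order of the groups was OMsup, ATRA+OMsup, untreated and ATRA, with no overlap between neighbours. On it, Slc7a11 rose with OMsup by 1.06 (SE 0.17, adjusted p = 0.0028), and the level with OMsup was at least 3.13-fold above that with ATRA (adjusted p = 5.93e-05). The level with ATRA+OMsup was at least 2.00-fold above that with ATRA (adjusted p = 0.00165). The level in untreated cells was at least 1.5-fold above that with ATRA, at an adjusted p of 0.0472 that passed 0.05 only narrowly. Leaving out any of the 8 arrays gave an adjusted p of 0.0512 to 0.367, with differences of -0.83 to -0.58. Without background correction the same probe gave -0.21 with ATRA (adjusted p = 0.132) and 0.43 with OMsup against untreated, and 0.64 with OMsup and 0.35 with ATRA+OMsup against ATRA, with the last 3 still called. The other probe gave 0.40 with OMsup (adjusted p = 0.167) and -0.41 with ATRA (adjusted p = 0.238) against untreated. Against ATRA it gave 0.81 with OMsup (adjusted p = 0.00446) and 0.30 with ATRA+OMsup (adjusted p = 0.308). The bounds therefore hold only for the brightest probe with background correction.

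Gss, glutathione synthetase, which adds glycine in the last step, read 5.95 and 5.75 in untreated cells, 5.72 and 5.90 with ATRA, 6.28 and 6.30 with OMsup and 6.77 and 6.34 with ATRA+OMsup. Every array with OMsup lay above the untreated and ATRA arrays. The rise passed the test with ATRA+OMsup (0.70, SE 0.19, adjusted p = 0.0282) and not with OMsup alone (0.44, adjusted p = 0.216). Without untreated replicate 1, untreated replicate 2 or ATRA+OMsup replicate 1 the combined difference was 0.49 to 0.80 with adjusted p-values of 0.0617 to 0.178. In the same gene, 3 other probes gave 0.19, 0.51 and 0.41 with adjusted p-values of 0.431, 0.107 and 0.184.

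Glutathione transferases couple glutathione to electrophiles, and this family held both the largest rises and a fall. Of 8 tested, 3 rose and 1 fell with OMsup, and the same counts held with ATRA+OMsup, while 1 fell and none rose with ATRA. That is 50%, 50% and 12.5% called, beside 9.36%, 15.1% and 4.06% of all genes, and 1 call of 8 says little about the family. Gsta3, an alpha-class cytosolic transferase, read 7.37 and 7.28 in untreated cells, 7.66 and 7.24 with ATRA, 10.03 and 10.01 with OMsup and 10.49 and 10.61 with ATRA+OMsup. The 4 arrays with OMsup were far above the other 4. Gsta3 rose 6.49-fold with OMsup (log2 2.70, SE 0.16, adjusted p = 2.61e-06) and 9.34-fold with ATRA+OMsup (log2 3.22, adjusted p = 5.23e-07). With ATRA alone the difference was 0.12 (adjusted p = 0.85). Another Gsta3 probe lay near background, at a mean log2 level of 4.65, and was detected on 4 arrays. It differed by 0.31 with OMsup (adjusted p = 0.444) and by 0.50 with ATRA+OMsup (adjusted p = 0.129). The mean of the detected probes rose by 1.5 with OMsup. Whether either probe also binds transcripts of near-identical alpha-class genes was not tested.

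The 3 microsomal transferases moved in different directions. Mgst2, a membrane enzyme whose human counterpart can also make leukotriene C4, read 6.11 and 5.86 in untreated cells, 6.20 and 5.94 with ATRA, 8.43 and 8.64 with OMsup and 8.97 and 8.88 with ATRA+OMsup. It was 5.83-fold higher with OMsup (log2 2.54, SE 0.17, adjusted p = 6.88e-06) and 7.64-fold higher with ATRA+OMsup (adjusted p = 1.47e-06). The arrays with OMsup did not overlap with those without it, as for Gsta3. Without background correction the rise with OMsup was 1.67. Mgst1, which sits in the endoplasmic reticulum and outer mitochondrial membrane, read 11.55 and 11.42 in untreated cells, 11.55 and 11.50 with ATRA, 12.56 and 12.38 with OMsup and 12.40 and 12.27 with ATRA+OMsup, with the 4 OMsup-treated arrays above the rest. Mgst1 rose by 0.99 with OMsup (SE 0.11, adjusted p = 0.000289) and by 0.86 with ATRA+OMsup (adjusted p = 0.000444), and another of its probes rose by 1.13 with OMsup. Mgst3, by contrast, read 10.95 and 10.87 in untreated cells, 10.48 and 10.29 with ATRA, 10.18 and 10.12 with OMsup and 9.77 and 9.59 with ATRA+OMsup. All 3 treated groups lay below untreated, with ATRA+OMsup lowest and no overlap between any of the groups. Mgst3 fell by 0.76 with OMsup (SE 0.13, adjusted p = 0.00342), by 1.23 with ATRA+OMsup (adjusted p = 7.99e-05) and by 0.53 with ATRA (adjusted p = 0.0472). The ATRA call did not hold without any array of the untreated, ATRA or OMsup groups, with differences of -0.62 to -0.43 and adjusted p-values of 0.0636 to 0.394.

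Gstp1, the pi-class transferase, read 8.74 and 8.94 in untreated cells, 8.27 and 8.22 with ATRA, 9.38 and 9.07 with OMsup and 9.10 and 8.79 with ATRA+OMsup. The ATRA arrays were the lowest and the OMsup arrays the highest in mean. Neither difference from untreated passed the test (-0.59 with ATRA, adjusted p = 0.0859; 0.38 with OMsup, adjusted p = 0.218), and OMsup was 0.97 above ATRA (SE 0.17, adjusted p = 0.00225). Gstm1, Gsto1 and Gstt1 did not pass in any comparison. Their differences from untreated with OMsup were 0.25, 0.19 and -0.39.

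Of the 7 tested genes of the thioredoxin branch, none rose and 1 fell with OMsup alone, 14.3% called beside 9.36% of all genes. Thioredoxin, Txn1, which reduces protein disulfides, read 7.65 and 6.82 in untreated cells, 7.77 and 7.41 with ATRA, 7.64 and 7.44 with OMsup and 8.39 and 8.31 with ATRA+OMsup. Untreated replicate 2 was the lowest array, and the ATRA+OMsup arrays lay above all others. Txn1 rose by 1.12 with ATRA+OMsup (SE 0.25, adjusted p = 0.0104), and without untreated replicate 2 by 0.70 at an adjusted p of 0.0859. The difference was 0.30 with OMsup (adjusted p = 0.561) and 0.36 with ATRA (adjusted p = 0.643). Txnrd1, the reductase that recharges thioredoxin and a well known NRF2 target, differed by 0.14 with OMsup, with a 95% interval of -0.25 to 0.54. Its probe lay near background, at 4.79 to 5.40, where the lowest detected signal of an array was 4.58 to 4.63. A change of Txnrd1 could therefore have been missed.

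Sulfiredoxin, Srxn1, which repairs overoxidised peroxiredoxins and is another known NRF2 target, read 10.92 and 11.14 in untreated cells, 10.53 and 10.36 with ATRA, 10.93 and 10.62 with OMsup and 10.31 and 10.16 with ATRA+OMsup. The OMsup arrays overlapped with neither ATRA group, and 1 of them exceeded the lower untreated array. Srxn1 fell with ATRA+OMsup (-0.80, SE 0.15, adjusted p = 0.00336). The difference with ATRA was -0.59 at an adjusted p of 0.0512, and that with OMsup -0.26 (adjusted p = 0.364). A pair of other Srxn1 probes gave -0.83 (adjusted p = 0.045) and -0.56 (adjusted p = 0.177) with ATRA. With ATRA+OMsup the same pair gave -1.03 (adjusted p = 0.00502) and -0.90 (adjusted p = 0.00815).

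Of the peroxiredoxins, which reduce hydrogen peroxide through thioredoxin, only Prdx4, the form of the secretory pathway, passed a test against untreated. It read 12.00 and 12.13 in untreated cells, 12.13 and 12.08 with ATRA, 11.70 and 11.60 with OMsup and 11.75 and 11.76 with ATRA+OMsup, and the 4 arrays with OMsup lay below the other 4. Prdx4 fell with OMsup by 0.41 (SE 0.11, adjusted p = 0.0334). Leaving out any untreated, ATRA or OMsup array gave -0.48 to -0.35 with adjusted p-values of 0.0668 to 0.243. Prdx2, a cytosolic form, was 0.50 higher with OMsup than with ATRA (adjusted p = 0.0138), and without either ATRA array or OMsup replicate 1 that difference was 0.40 to 0.52 with adjusted p-values of 0.0692 to 0.118. Prdx1 and Prdx3 differed from untreated with OMsup by 0.18 and 0.19, and neither passed in any comparison. Between OMsup and ATRA, Prdx1 differed by 0.29 (adjusted p = 0.0663), which passed without background correction (0.29, adjusted p = 0.0478), with the deposited matrix (adjusted p = 0.0458), with the mean of its probes (0.54, adjusted p = 0.021) and on its other, dimmer probe (0.78, adjusted p = 0.0372).

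Among the genes of NADPH supply and the pentose phosphate pathway, G6pdx and Pgd had no test. Taldo1, transaldolase of that pathway, read 12.80 and 12.87 in untreated cells and 12.60 and 12.54 with ATRA. It read 13.50 and 13.60 with OMsup and 13.36 and 13.45 with ATRA+OMsup. The 4 arrays with OMsup were above untreated, and the ATRA arrays were below it. Taldo1 rose by 0.72 with OMsup (SE 0.10, adjusted p = 0.000825) and by 0.57 with ATRA+OMsup (adjusted p = 0.00211). Tkt, transketolase of the same pathway, differed by 0.38 with OMsup (adjusted p = 0.123). Me1, the cytosolic malic enzyme, lay near background, with 4 of 8 arrays detected and neither ATRA array among them.

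The enzymes that remove peroxides and superoxide did not move together. Sod2, the manganese superoxide dismutase of mitochondria, read 11.22 and 11.06 in untreated cells, 10.92 and 11.05 with ATRA, 11.70 and 11.96 with OMsup and 11.97 and 12.02 with ATRA+OMsup, so that the arrays with OMsup lay above the rest. Sod2 rose by 0.69 with OMsup (SE 0.13, adjusted p = 0.00545) and by 0.86 with ATRA+OMsup (adjusted p = 0.000865). Without untreated replicate 2 or OMsup replicate 2, the OMsup difference was 0.61 or 0.56, with adjusted p-values of 0.0694 and 0.0581. Sod1, the cytosolic copper and zinc enzyme, differed by -0.49 with OMsup (adjusted p = 0.107). Catalase, Cat, read 9.73 and 9.38 in untreated cells, 9.81 and 9.65 with ATRA, 10.40 and 10.01 with OMsup and 10.14 and 9.96 with ATRA+OMsup. Cat was highest with OMsup, 0.65 above untreated (SE 0.17, adjusted p = 0.0363). That call was lost without untreated replicate 2, OMsup replicate 1 or either ATRA array, with differences of 0.46 to 0.65 and adjusted p-values of 0.0573 to 0.288.

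Gpx3, the secreted glutathione peroxidase, read 9.32 and 9.47 in untreated cells, 10.33 and 9.76 with ATRA, 8.23 and 7.92 with OMsup and 9.96 and 9.33 with ATRA+OMsup. The OMsup arrays stood well below all others, and the ATRA+OMsup arrays lay in the range of the untreated and ATRA arrays. Gpx3 fell 2.50-fold with OMsup (log2 -1.32, SE 0.23, adjusted p = 0.00439), and it was 2.97-fold higher with ATRA+OMsup than with OMsup (log2 1.57, adjusted p = 0.00272). Without untreated replicate 2 the difference with OMsup was -1.25 (adjusted p = 0.0509). The difference with ATRA alone was 0.65 (adjusted p = 0.212). The interaction, the ATRA effect with OMsup minus that without it, was 0.92 (SE 0.33, adjusted p = 0.687), so the ATRA effects on Gpx3 were not shown to differ.

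Gpx4, which reduces lipid hydroperoxides in membranes, read 12.50 and 12.51 in untreated cells, 12.92 and 12.86 with ATRA, 12.54 and 12.53 with OMsup and 13.10 and 12.92 with ATRA+OMsup. The 4 arrays with ATRA were above the 4 without it. Gpx4 rose by 0.51 with ATRA+OMsup against untreated (SE 0.10, adjusted p = 0.00592) and by 0.48 against OMsup (adjusted p = 0.0215). The difference with ATRA alone was 0.39 (adjusted p = 0.0656) and that with OMsup alone 0.03. Without either OMsup array or ATRA+OMsup replicate 1, the difference from OMsup was 0.39 to 0.48 with adjusted p-values of 0.109 to 0.115. Another Gpx4 probe gave 0.74 with ATRA+OMsup against untreated (adjusted p = 0.00243) and 0.67 against OMsup (adjusted p = 0.0114). A further, dim Gpx4 probe gave 0.27 and 0.37 there (adjusted p = 0.475 and 0.545). Gpx1, the abundant cytosolic peroxidase, differed by 0.00 with OMsup, with a 95% interval of -0.21 to 0.22, and passed in no comparison of the main fit. After quantile normalization, replicate 1 of untreated, ATRA and OMsup all read 14.525, from raw intensities of 23327, 24505 and 22588. With a replicate term, Gpx1 was called lower with ATRA+OMsup than with ATRA (-0.27, adjusted p = 0.0206) and than in untreated cells (-0.23, adjusted p = 0.0354).

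Of the other detoxifying enzymes, Nqo1, the quinone reductase most often used to read NRF2 activity, read 6.18 and 6.71 in untreated cells, 5.51 and 5.53 with ATRA, 7.20 and 7.44 with OMsup and 6.38 and 6.34 with ATRA+OMsup. The OMsup arrays were the highest, the ATRA arrays the lowest, and the ATRA+OMsup arrays overlapped with untreated. Nqo1 rose with OMsup by 0.88 (SE 0.20, adjusted p = 0.0185) and fell with ATRA by 0.92 (adjusted p = 0.0262), and OMsup was 3.48-fold above ATRA (log2 1.80, adjusted p = 0.000135). With ATRA+OMsup it was 0.96 below OMsup (adjusted p = 0.0191), 0.84 above ATRA (adjusted p = 0.0209) and -0.08 from untreated, with a 95% interval of -0.53 to 0.36. The interaction was -0.04, with an interval of -0.67 to 0.59.

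Several of these Nqo1 calls rested on single arrays, the scaling or the background correction. Without untreated replicate 2 or either ATRA array the difference with ATRA was -0.93 to -0.65 with adjusted p-values of 0.153 to 0.225. Scaling arrays to a common median gave -0.84 with ATRA (adjusted p = 0.0542) and 0.75 with OMsup (adjusted p = 0.0541). Without untreated replicate 1 or OMsup replicate 2 the difference with OMsup was 0.61 or 0.76, with adjusted p-values of 0.147 and 0.137. Leaving out any array of the OMsup or ATRA+OMsup groups gave adjusted p-values of 0.0558 to 0.136 for ATRA+OMsup against OMsup, and leaving out any ATRA or ATRA+OMsup array gave 0.0727 to 0.117 for ATRA+OMsup against ATRA. Without background correction Nqo1 differed by -0.42 with ATRA (adjusted p = 0.0538) and by 0.53 with OMsup (adjusted p = 0.0099), and ATRA+OMsup was 0.37 above ATRA (adjusted p = 0.0501). The call of OMsup above ATRA passed in every alternative run, but its size fell from 1.80 to 0.95 without background correction.

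Cbr3, a carbonyl reductase, read 9.86 and 10.09 in untreated cells, 9.73 and 9.53 with ATRA, 11.04 and 10.93 with OMsup and 10.59 and 10.79 with ATRA+OMsup. It rose 2.01-fold with OMsup (log2 1.01, SE 0.14, adjusted p = 0.000978) and by 0.72 with ATRA+OMsup (adjusted p = 0.00509). The 4 arrays with OMsup lay above the other 4, and without untreated replicate 1 the rise with ATRA+OMsup was 0.60 at an adjusted p of 0.0558. Cbr1 passed in no comparison. Akr1b8, an aldo-keto reductase, was 0.52 higher with OMsup than with ATRA (adjusted p = 0.0328), a call lost without any untreated, ATRA or OMsup array, at differences of 0.39 to 0.65 and adjusted p-values of 0.0523 to 0.278.

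Ephx1, the microsomal epoxide hydrolase, read 10.90 and 10.94 in untreated cells, 9.95 and 9.78 with ATRA, 9.46 and 9.63 with OMsup and 9.26 and 9.25 with ATRA+OMsup. Untreated cells were the highest and all 3 treated groups were lower, in the order ATRA, OMsup and ATRA+OMsup, with no overlap between them. Because the medium of the untreated cells is not stated, treatment and medium cannot be told apart in this shared shift. The same holds for Mgst3 and Nfe2l2. Ephx1 fell 2.08-fold with ATRA (log2 -1.06, SE 0.13, adjusted p = 0.000899), 2.60-fold with OMsup (log2 -1.38, adjusted p = 5.83e-05) and 3.17-fold with ATRA+OMsup (log2 -1.67, adjusted p = 9.36e-06). The interaction was 0.77 (SE 0.18, unadjusted p = 0.00147, adjusted p = 0.217). Each of the 3 falls passed under every alternative run.

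**Figure D2:**
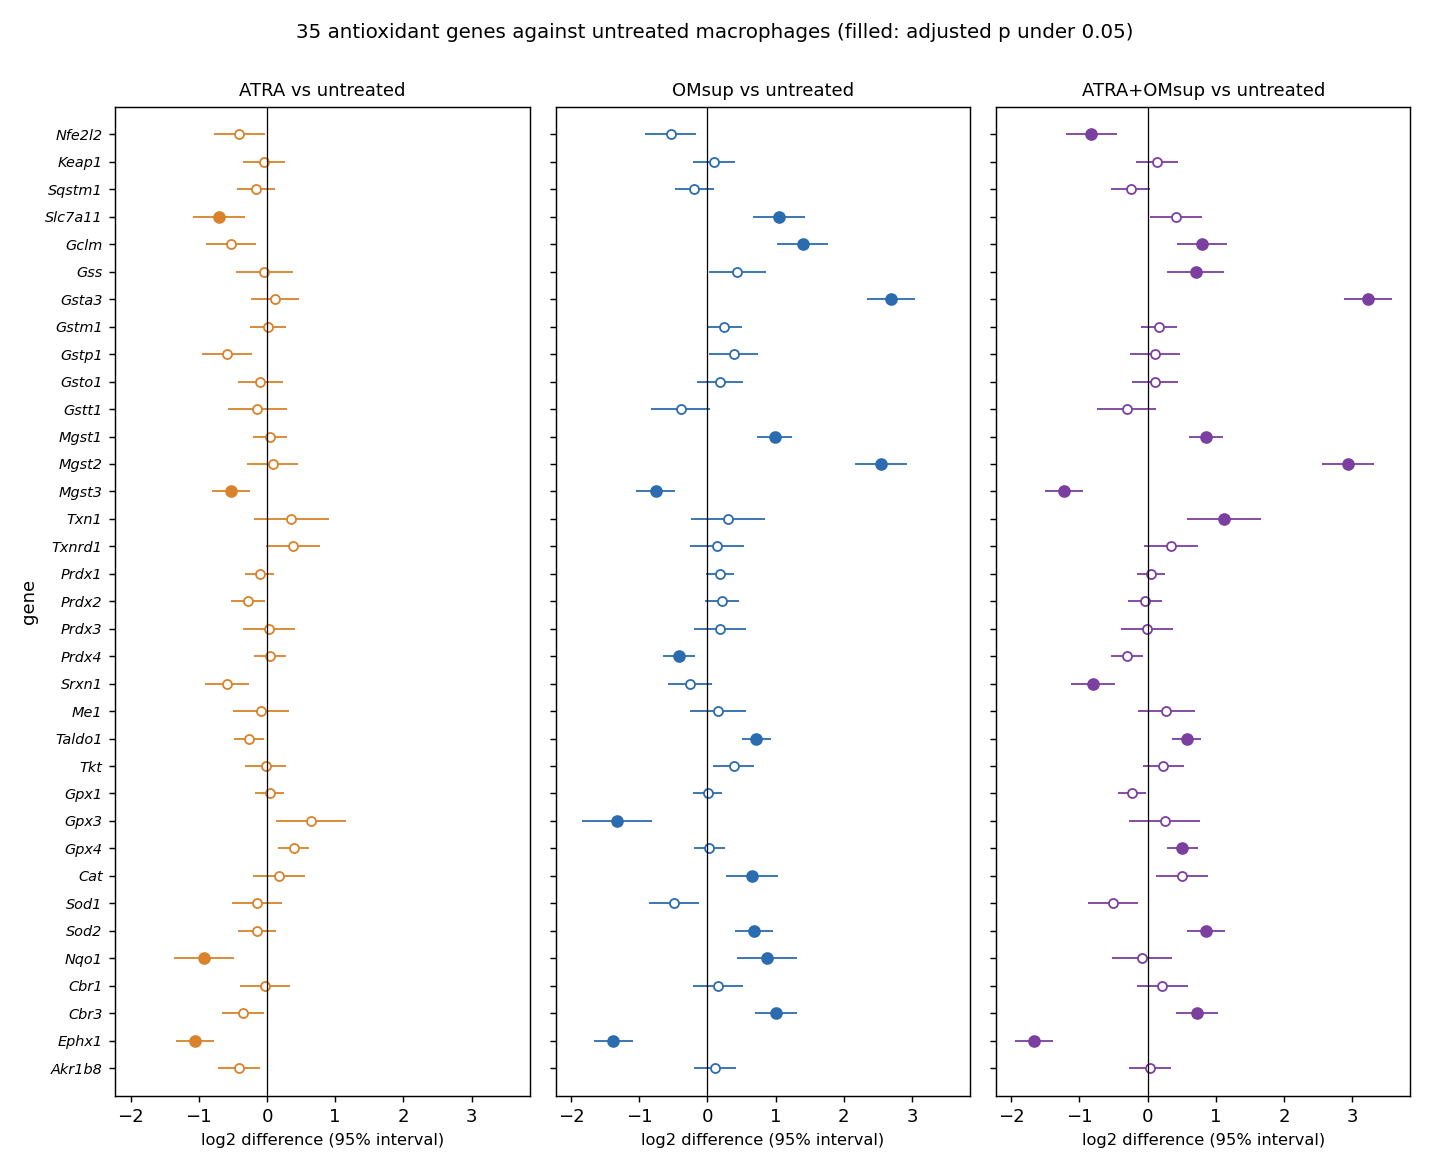
Log2 differences of the 35 tested genes from untreated cells with each treatment, with 95% confidence intervals from limma and filled points for called genes. Gsta3 and Mgst2 have the largest rises with OMsup, 2.70 and 2.54, and Ephx1 the largest fall, -1.38.

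Set directly against each other, OMsup and ATRA differed in 15 of the 35 genes, where 13.4% of all genes were called (6.25% higher and 7.11% lower with OMsup): 12 were higher with OMsup and 3, Gpx3, Prdx4 and Gpx4, were higher with ATRA. Over the 35 genes the median difference was 0.28, beside 0.00 over all genes. Gpx3 was 3.92-fold higher with ATRA (log2 -1.97, adjusted p = 0.000207). Prdx4 and Gpx4 differed by -0.45 and -0.36 (adjusted p = 0.0153 and 0.0386). Leaving out either ATRA array or OMsup replicate 2 gave adjusted p-values of 0.0832 to 0.127 for Prdx4, and leaving out any untreated, ATRA or OMsup array 0.0662 to 0.239 for Gpx4. Adding OMsup to ATRA raised 11 genes and lowered 2, Mgst3 and Ephx1, where 10.4% of all genes were called (4.98% higher and 5.42% lower). The 2 falls, -0.70 and -0.61, were -0.61 and -0.52 without ATRA replicate 1, with adjusted p-values of 0.0668 and 0.123. Of the 11 rises, those of Gss (0.74) and Gstp1 (0.70) lost their calls without either ATRA array or ATRA+OMsup replicate 1, with adjusted p-values of 0.0924 to 0.195 and 0.0964 to 0.138.

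Adding ATRA to OMsup changed 3 of the 35 genes, where 4.49% of all genes were called (2.73% higher and 1.77% lower): Gpx3 and Gpx4 rose and Nqo1 fell. Gclm and Slc7a11 differed by -0.60 and -0.65 without passing (adjusted p = 0.0816 and 0.0679), and in each the ATRA+OMsup arrays lay below the OMsup arrays. Slc7a11 passed without background correction (-0.29, adjusted p = 0.0305), with the deposited matrix (-0.30, adjusted p = 0.0307) and with the mean of its probes (-0.58, adjusted p = 0.0423). In limma with a replicate term, Slc7a11 (adjusted p = 0.019) and Gclm (adjusted p = 0.0322) both passed. The other Slc7a11 probe gave -0.51 (adjusted p = 0.115). No listed gene passed the test of the interaction, where 0.242% of all genes were called (0.164% above 0 and 0.0782% below). At an unadjusted p under 0.05 there were 2, Gpx3 and Ephx1, and limma with a replicate term also called 0. The median SE of the interaction over all genes was 0.24 in the fit without that term. With 2 arrays a group, a moderate difference between the ATRA effects could therefore have been missed.

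The group in which each gene was lowest or highest describes the same contrast. The lowest mean was in ATRA for 16 of 35 genes (45.7%), beside 22.0% of all genes, and the highest in OMsup for 15 (42.9%), beside 24.4% of all genes. When arrays were instead scaled to a common median, which shifts all genes, ATRA was lowest for 12 genes, beside 13.5% of all genes, and OMsup highest for 14, beside 14.3%. The range between the highest and lowest group mean had a median of 0.65 over the 35 genes and 0.35 over all genes.

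**Figure D3:**
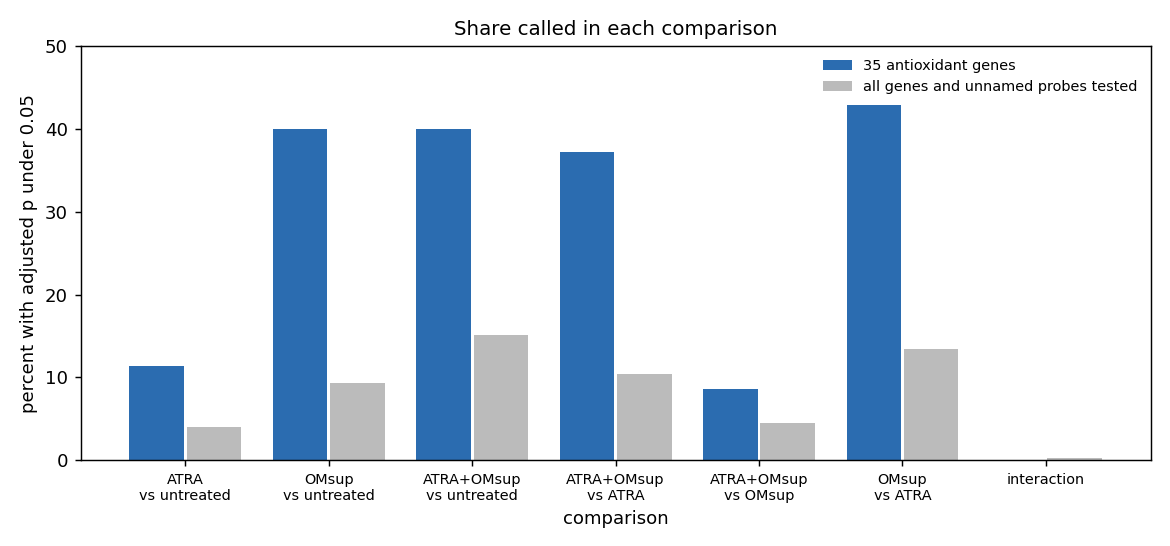
Percent of genes called at an adjusted p under 0.05 in each comparison, for the 35 listed genes and for all 12793 tested. The listed genes reach 40.0% with OMsup and 42.9% in OMsup against ATRA, beside 9.36% and 13.4% of all genes.

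Most genes with further probes gave the same sign on them. Among 24 other detected probes of 16 listed genes, 6 belonged to genes called with OMsup, all 6 had the sign of the probe used, and 3 were called themselves. Those 3 were probes of Mgst1 (1.13), Cbr3 (1.00) and Mgst3 (-0.78). The probes not called were those of Gsta3, Slc7a11 and Cat, the last with 0.42 (adjusted p = 0.292). These lay near background, at mean log2 levels of 4.65, 5.06 and 4.98, so a change could have been missed on them. The called probes of Mgst1, Cbr3 and Mgst3 were brighter, at 10.49, 8.45 and 9.20.

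**Figure D4:**
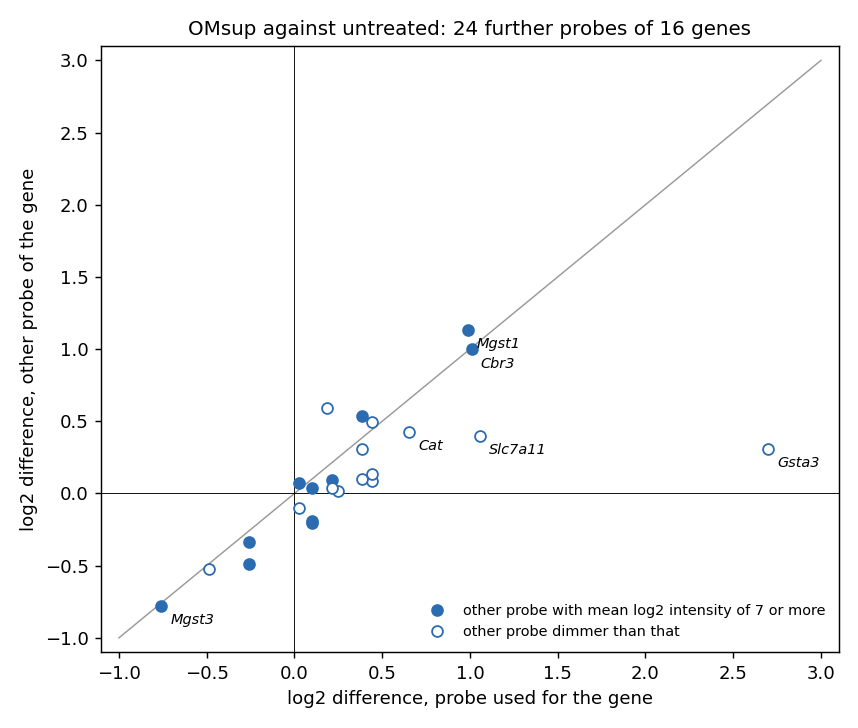
Log2 difference with OMsup against untreated, for the probe used (horizontal) and for 24 other detected probes of the same genes (vertical); filled points are other probes with a mean log2 intensity of 7 or more, and the line marks equal values. Most points lie near that line. Another Gsta3 probe, dim at a mean log2 intensity of 4.65, gave 0.31 with OMsup where the one used gave 2.70.

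A wider list of 90 genes of the same pathways, without the 42, had 70 tested. With OMsup 5 rose and 4 fell, with ATRA 3 rose and 2 fell, and with ATRA+OMsup 9 rose and 6 fell, that is 12.9%, 7.14% and 21.4% called, beside 9.36%, 4.06% and 15.1% of all genes. Gstm2, a mu-class glutathione transferase, rose by 2.12 with OMsup and 2.03 with ATRA+OMsup (adjusted p = 8.31e-06 and 7.16e-06), and differed by -0.46 with ATRA. Hmox1, haem oxygenase and an NRF2 target, rose by 0.98 with OMsup and 1.36 with ATRA+OMsup, and differed by 0.66 with ATRA (adjusted p = 0.0634). Msrb1, a methionine sulfoxide reductase, rose by 1.03 and 1.16 and differed by -0.32 with ATRA (adjusted p = 0.394). Oplah, which opens 5-oxoproline in the glutathione cycle, rose by 0.68 with OMsup and differed by -0.18 with ATRA and 0.24 with ATRA+OMsup. Its probe lay near background, at 4.66 to 5.71. The falls with OMsup were Rac2 (-0.89), a subunit of the phagocyte NADPH oxidase system, the sestrin Sesn1 (-0.78), Ggct (-0.77), which releases 5-oxoproline, and the quinone reductase Nqo2 (-0.56). With ATRA these 4 differed by -0.05, 0.03, -0.34 and 0.06, none of them called. Rac2 and Nqo2 differed by -0.42 and -0.40 with ATRA+OMsup without passing.

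Of the wider list, 3 genes rose with ATRA. Abcc3, an exporter of glutathione and glucuronide conjugates, rose by 1.43 with ATRA, 0.66 with OMsup and 1.61 with ATRA+OMsup. All treated groups lay above untreated in Abcc3, as in Hmox1, so treatment and medium cannot be told apart in the part they share. Osgin1, an oxidative stress response gene, rose by 1.27 with ATRA and by 1.27 with ATRA+OMsup, and differed by 0.23 with OMsup (adjusted p = 0.507). Chac1, which breaks down glutathione, was at least 1.68-fold higher with ATRA than in untreated cells, where it was not above background. Cbr2, a carbonyl reductase, fell by 1.13 with ATRA and 1.42 with ATRA+OMsup, and differed by -0.06 with OMsup (adjusted p = 0.923). Ncf4, a subunit of the phagocyte oxidase, fell by 0.94 with ATRA and differed by 0.31 with OMsup and -0.15 with ATRA+OMsup. Sesn2, another sestrin, rose by 1.38 with ATRA+OMsup, and Glrx, glutaredoxin, fell by 0.69 there, with falls of 1.02 for Ggct and 0.79 for Sesn1.

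The arrays detected 16116 to 16784 of 45281 probes each, and replicates of a group correlated at 0.989 to 0.992 across probes. All 8 macrophage markers with a probe were tested, and their summed linear level was 28503 to 32731 on every array. Single markers did change: Cd14 fell with OMsup (-0.93), Mertk rose with ATRA (1.13), and Itgam (1.49) and Fcgr1 (0.78) rose with ATRA+OMsup. None of the 7 mesothelial and none of the 5 T and NK cell markers with a probe passed the detection filter. Of those with a probe, 1 of 6 adipocyte, 2 of 7 fibroblast, 1 of 3 B cell, 3 of 5 dendritic, 2 of 5 mast cell and 1 of 3 erythroid markers passed, and no class summed to more than 82.9 on any array. The mast cell marker Kit was at least 1.38-fold higher in untreated cells than with OMsup, where it was not above background (adjusted p = 0.0093).

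All 7 granulocyte markers with a probe were tested, with summed levels of 1369 to 1784 in untreated cells, 882 to 984 with ATRA, 1768 to 2125 with OMsup and 1347 to 1600 with ATRA+OMsup. The single markers went both ways: with OMsup Mpo rose (0.89, adjusted p = 0.011) while Camp (at least 1.47-fold lower, not above background with OMsup, adjusted p = 0.00835), Ltf (-1.09, adjusted p = 0.0161) and Ngp (-0.69, adjusted p = 0.0391) fell, and S100a8 fell with ATRA (-0.86, adjusted p = 0.0353). The part of these markers in the results was not tested. In bulk RNA, fewer cells of a type and less RNA per cell cannot be told apart.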

How the data were processed

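RNA of 8 samples in 4 groups, 2 each, was amplified and hybridized to Illumina mouse bead arrays, per the labels' protocols. The authors deposited a non-normalized intensity and a detection p-value for each probe and array, per the file headers. The intensity is linear and, as its values show, not background-subtracted. A deposited normalized intensity matrix served only as an alternative. The sources used here do not name the software.

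With limma 3.58.1 in R 4.3.3, neqc corrected background from negative controls that it estimated out of the detection p-values, added an offset of 16, quantile-normalized and took log2. Of 45281 probes, 18503 had a detection p under 0.05 on 2 or more arrays and went forward, and the brightest detected probe stood for its symbol. Of the probes, 34885 had 1 symbol, 18 several and 10378 none, from a platform table updated by gene number to RefSeq symbols (GRCm38.p6). Unnamed probes were tested by themselves. Group means were fitted on all 8 arrays with lmFit and eBayes (trend on), with Benjamini-Hochberg adjustment over the 12793 features of each of 7 comparisons. A "rise", "fall" or "call" is an adjusted p under 0.05. Where neither array of a group was above background, a bound is given, computed against the lowest detected signal after background correction. The procedure was tested on simulated data.

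The listed genes, the wider list and the markers were chosen with earlier results of these data known. Every listed gene with a called difference is named, and of the wider list up to 4 rises and 4 falls against untreated per comparison. Alternatives covered background, scaling, the deposited matrix, filters, probe choice, the model, a replicate term and leaving out each array. Bead arrays give no counts, and 2 arrays a group limit the precision.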

Additional observations from a re-analysis of the deposited data

How the results depend on the processing

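No call of a listed gene changed direction under any alternative run. Not counting the values of other single probes, the calls of 9 of 14 genes with OMsup, 9 of 14 with ATRA+OMsup, 1 of 4 with ATRA (Ephx1), 8 of 13 for ATRA+OMsup against ATRA, 1 of 3 for ATRA+OMsup against OMsup (Gpx3) and 11 of 15 for OMsup against ATRA passed under every alternative. With ATRA, 4 listed genes were called, and 2 without background correction, 1 with arrays scaled to a common median, 2 with no filter on dim probes and 7 in a fit of the 2 groups alone, 1 of them a rise, of Gpx4. For ATRA+OMsup against OMsup, 3 became 5 with the mean of all detected probes. Background choice moved dim genes most: Nqo1 with OMsup was 0.53 without correction and Gss with ATRA+OMsup 0.35. The cause was not tested.

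Leaving out 1 array in turn gave 1 to 5 listed genes with ATRA (lowest without untreated replicate 2), 10 to 14 with OMsup, 11 to 15 with ATRA+OMsup, 8 to 14 for ATRA+OMsup against ATRA, 1 to 4 against OMsup (lowest without OMsup replicate 1), 11 to 16 for OMsup against ATRA and 0 to 0 for the interaction. Over all genes, the counts were 219 to 595 with ATRA (520 with all arrays; lowest without ATRA replicate 1), 613 to 1323 with OMsup (1197; lowest without untreated replicate 2), 1114 to 1911 with ATRA+OMsup (1937; lowest without untreated replicate 2), 674 to 1287 for ATRA+OMsup against ATRA (1331; lowest without ATRA replicate 2), 321 to 481 against OMsup (575; lowest without OMsup replicate 1), 1044 to 1850 for OMsup against ATRA (1709; lowest without ATRA replicate 2) and 14 to 34 for the interaction (31; lowest without ATRA replicate 2).

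The groups share replicate numbers 1 and 2, and no label says that these pair samples. Deviations of same-numbered arrays correlated at 0.21, 0.03 and -0.01 between untreated and ATRA, OMsup and ATRA+OMsup, and at 0.43 to 0.53 among the treated groups. With the replicate number as a block, 8 listed genes were called with ATRA (4 without it), 2 of them rises, Gpx3 (adjusted p = 0.0422) and Gpx4 (adjusted p = 0.0174), and 9 for ATRA+OMsup against OMsup (3 without it), and over all genes 924, 899 and 65 with ATRA, for ATRA+OMsup against OMsup and for the interaction.

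Scaling arrays to a common median moved the share of higher calls over all genes from 57.7% to 68.6% with ATRA, from 47.9% to 37.6% for ATRA+OMsup against ATRA and from 46.8% to 30.7% for OMsup against ATRA, and among listed genes in the last from 80.0% to 91.7%. It shifted the median of all genes by -0.13 there. Among listed genes for ATRA+OMsup against OMsup, the share of higher calls went from 66.7% to 50% without background correction and with the deposited matrix. With 2 arrays a group, the median SE was 0.17 on the log2 scale, which limits small differences. Signal near background limits Me1, Slc7a11, Txnrd1, Gstt1 and, of the wider list, Oplah, and it left Gclc untested.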
